A study of Homo sapiens with 6 samples.

Results

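Tumor cells display surface proteins that restrain the immune cells around them, and the RNA of 10 such checkpoint ligands and immune-evasion molecules was examined in BT-549 breast cancer cells given medium from adipocytes. The 10 genes were taken by symbol from a list of such molecules, out of the 63140 genes quantified in each library, and are VSIR, CD274, PDCD1LG2, CD276, VTCN1, CD47, NT5E, LGALS9, PVR and NECTIN2. BT-549 is an established triple negative breast cancer line, labelled epithelial and of wild-type genotype, and nontransgenic cells of this line were grown in a 6-well plate for 24 h. In the ACM group (3 libraries) the cells received adipocyte-conditioned medium, collected from OP9 mouse cells that were differentiating in a medium of insulin, oleate and albumin. In the UCM group (3 libraries) the cells received unconditioned medium, whose formula is not given in the sources used here, so base medium, serum, oleate, insulin and adipocyte secretions cannot be told apart as differences between the groups. The labels give 50% ACM for these cultures, whereas the supplementary methods of the study describe undiluted ACM. Nothing says that the replicates came from separate experiments, so p-values measure only the spread between these 6 libraries, which may be technical.

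Checkpoint ligands bind receptors on T cells, natural killer cells and macrophages and lower their activity. CD274 (PD-L1) and PDCD1LG2 (PD-L2) bind PD-1, CD47 binds SIRPA on macrophages as a signal against phagocytosis, and PVR and NECTIN2 bind the inhibitory receptors TIGIT and, for NECTIN2, PVRIG, as well as the activating receptor CD226. VSIR (VISTA), CD276 (B7-H3) and VTCN1 (B7-H4) belong with the PD-1 ligands to the B7 family, and LGALS9 is a secreted galectin that binds HAVCR2 (TIM-3). NT5E (CD73) acts through chemistry rather than binding, since this surface enzyme turns extracellular AMP into adenosine, which dampens T cells through the receptor ADORA2A.

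The libraries held between 17135288 and 21053257 expected counts, and every library correlated with those of its group at a Pearson r of at least 0.984 on log2 CPM. UCM replicate 1 exceeded both other UCM libraries by over 1.5 times for 5.18% of the 14451 genes tested, and for CD274 and LGALS9 among the 10 genes. By the same factor ACM replicate 1 (4.08% of genes) and UCM replicate 3 (1.14%) exceeded the others of their group for VSIR. ACM replicate 2 (2.55%) did so for NT5E, and ACM replicate 3 lay below the others for 4.01% of genes and for LGALS9. Although the label is epithelial, none of 8 epithelial markers reached a mean of 1 TPM in UCM (summed level 2.10 to 4.60 TPM in ACM and 2.33 to 3.17 TPM in UCM), whereas all 7 mesenchymal markers did. The hormone receptors ESR1 and PGR were at 0 in all 6 libraries, and ERBB2 was at 25.5 to 32.4 TPM. Of 9 myeloid markers only CD68 reached 1 TPM in UCM, and the list summed to between 13.6 and 31.2 TPM in ACM and between 6.61 and 8.83 TPM in UCM. CD68, which also marks lysosomes in other cells, was higher in ACM (log2 FC = 1.76, SE 0.34, adjusted p = 0.0335, edgeR), while TYROBP and LYZ were at 0 in every library and PTPRC did not exceed 0.18 TPM. Of 8 lymphocyte markers 7 were at 0 and CD7 alone exceeded 1 TPM. Of 7 adipocyte markers only CFD did, while ADIPOQ, CIDEC and LEP were at 0.

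The 2 largest differences between ACM and UCM among the 10 genes pointed in opposite directions. NT5E was 2.23-fold higher in ACM, and VSIR was at 0.371 of its UCM level, without passing the adjusted threshold. For CD276, CD47, PVR and NECTIN2 the 95% interval of the difference lay within 1.3-fold in either direction, while for CD274, PDCD1LG2 and LGALS9 it was wider. Of the 10 genes, 9 passed the filter on low counts and were tested, and VTCN1 had no count in any library. After adjustment over the 14451 genes, 1 member (NT5E) was higher in ACM and none was lower, while 3.35% of all genes tested were higher and 2.21% lower, or 5.56% in either direction. The study defined a DEG more loosely, by a p-value of up to 0.05 without adjustment and a log2 FC beyond ± 0.58, from DESeq2. With these thresholds applied to the edgeR values, NT5E was an UpDEG and VSIR a DownDEG, against 4.12% and 1.71% of all genes tested. By the unadjusted p-value alone 2 members were higher (NT5E and PDCD1LG2) and 1 was lower (VSIR), where 11.9% and 11.5% of all genes tested were. The 3 ACM values of CPM lay entirely above the 3 UCM values for NT5E and entirely below them for VSIR, and overlapped them for the other 7 tested members. Among all genes tested 13.9% were separated upward and 15.1% downward in this way. The median log2 FC of the 9 tested members was 0.17, with 7 positive and 2 negative values, beside a median of -0.01 over all genes tested. Across alternative settings the member median ranged from 0.02 (on log2(TPM + 1)) to 0.23 (without ACM replicate 3).

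**Figure D1:**
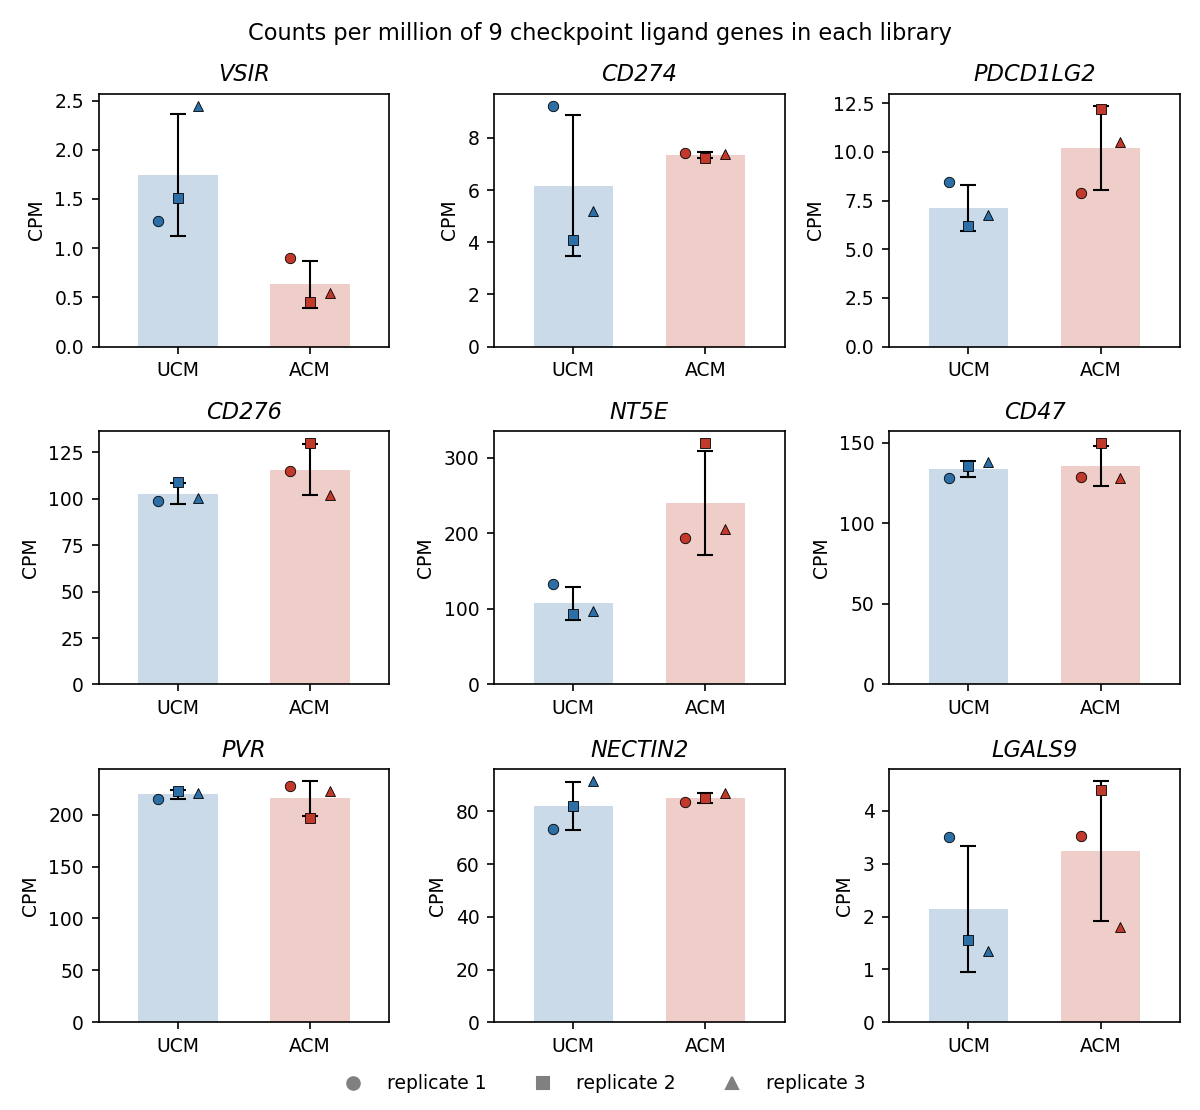
CPM (vertical axes, from 0, each panel on its own scale) of the 9 detected members in the 3 UCM and 3 ACM libraries; points are libraries with the marker shape giving the replicate number, bars are means and error bars are SDs over 3 libraries. The NT5E points of ACM (194 to 319 CPM) lie above those of UCM (93.2 to 133 CPM), the VSIR points of ACM (0.451 to 0.903 CPM) lie below those of UCM (1.28 to 2.45 CPM), and the other 7 genes overlap.

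VSIR encodes VISTA, a B7 family protein that acts both as a ligand and as a receptor in T cell inhibition. It lies on the minus strand of chromosome 10 (GRCh38, chr10:71747556-71773520, ENSG00000107738), within the span of CDH23 on the other strand but overlapping none of its exons. CDH23 itself had 1 count in the 6 libraries together. The 300 bases around its start site, from 250 before to 50 after, are shown because VSIR had the largest difference of the 10 genes (RefSeq, GRCh38.p14, chr10:71773471-71773770, minus strand, 5′ to 3′), with matches to the GC box in capitals.
VSIR promoter: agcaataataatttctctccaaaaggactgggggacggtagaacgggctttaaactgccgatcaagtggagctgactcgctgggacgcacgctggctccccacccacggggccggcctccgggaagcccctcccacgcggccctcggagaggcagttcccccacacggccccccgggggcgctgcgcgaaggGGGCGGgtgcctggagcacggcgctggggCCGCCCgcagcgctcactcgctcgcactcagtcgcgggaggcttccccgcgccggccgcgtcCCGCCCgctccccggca
This window is 72.0% G and C and holds 35 CpG sites, against medians of 58.7% and 14 over the 35097 promoters of the table. The GC box (GGGCGG, or CCGCCC on the other strand) occurs in it 3 times and occurs at least once in 44.9% of all promoters.

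VSIR was represented by few reads. ACM replicates 1, 2 and 3 had 19, 8 and 10 expected counts, and UCM replicates 1, 2 and 3 had 27, 28 and 42. Summed over libraries these are 37 counts in ACM (95% exact Poisson interval 26.1 to 51.0) and 97 in UCM (78.7 to 118), intervals that cover counting error only. Every ACM library was lower than every UCM library. As CPM, VSIR was at 0.903, 0.451 and 0.544 in ACM and at 1.28, 1.51 and 2.45 in UCM, or 0.632 ± 0.239 against 1.75 ± 0.621 (SD, 3 libraries each). The log2 FC was -1.43 (SE 0.42, 95% interval -2.36 to -0.50), with an adjusted p of 0.0745 from edgeR, short of the threshold of 0.05. Across the alternative settings in which VSIR could be fitted, its log2 FC stayed negative, from -2.17 to -0.90, and its adjusted p ranged from 0.0271 to 0.298. It passed in 2 of 13 such settings, among them a filter of at least 1 count in total (adjusted p = 0.0271), and also without replicate 1 of both groups, a comparison chosen after the data were seen (log2 FC = -1.96, adjusted p = 0.0271). In bulk RNA, fewer cells carrying a transcript and less of it per cell cannot be told apart.

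The deposited lengths give a view of which VSIR transcripts the reads were assigned to. VSIR has 1 protein-coding transcript of 4714 bases and 2 shorter transcripts of 758 and 790 bases without a coding sequence, so the mean transcript length that RSEM reports for a library fixes the share of the long one within narrow bounds. The coding transcript made up 100%, 19.8 to 20.4% and 44.4 to 44.9% of VSIR transcripts in ACM replicates 1, 2 and 3, and 41.4 to 41.9%, 30.2 to 30.7% and 17.3 to 18.0% in UCM. These shares overlapped between the groups. Multiplied by the deposited TPM, the coding transcript was at 0.29, 0.0950 to 0.0981 and 0.156 to 0.157 TPM in ACM and at 0.360 to 0.365, 0.377 to 0.384 and 0.508 to 0.528 TPM in UCM. The coding transcript thus had a lower estimate in each ACM library than in any UCM library, as the whole gene did, on 8 to 42 counts per library.

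NT5E, the ecto-5′-nucleotidase that makes extracellular adenosine, was the member that rose in ACM. It lies on the plus strand of chromosome 6 (GRCh38, chr6:85449584-85495791, ENSG00000135318). Its promoter window (RefSeq, GRCh38.p14, chr6:85449833-85450132, plus strand, 5′ to 3′) is shown for comparison with that of VSIR, again with GC boxes in capitals. The RefSeq start site lies 499 bases downstream of the start of the gene in GENCODE 44.
NT5E promoter: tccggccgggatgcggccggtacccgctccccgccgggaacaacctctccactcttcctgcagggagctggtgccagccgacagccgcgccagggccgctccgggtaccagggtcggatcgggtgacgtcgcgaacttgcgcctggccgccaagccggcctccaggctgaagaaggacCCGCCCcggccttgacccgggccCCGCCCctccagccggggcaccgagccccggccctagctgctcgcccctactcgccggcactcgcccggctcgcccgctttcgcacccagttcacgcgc
The NT5E window is 75.0% G and C, holds 37 CpG sites and has 2 GC boxes. Both windows are thus rich in G and C and hold GC boxes, and neither holds a match to the other 4 motifs searched. Any relation of these features to the differences between media was not tested.

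ACM replicates 1, 2 and 3 had 4090, 5663 and 3796 expected counts of NT5E, and UCM replicates 1, 2 and 3 had 2805, 1733 and 1663. ACM replicate 2 was the highest library and UCM replicate 1 the highest of its group, with no overlap between the groups. Scaled to CPM, the ACM libraries were at 194, 319 and 206 and the UCM libraries at 133, 93.2 and 97.0, means of 239.9 ± 68.8 against 107.7 ± 21.9 (SD, 3 libraries each). The log2 FC was 1.15 (SE 0.24, 95% interval 0.58 to 1.73), a 2.23-fold difference, with an adjusted p of 0.0479 from edgeR. Within each library, the ratio of NT5E counts to those of CD276, another member at a like level in UCM, was 1.70, 2.46 and 2.02 with ACM but 1.35, 0.853 and 0.965 with UCM. The sign of the NT5E difference was the same in all 14 other settings and the call was kept in 8 of them. Over all 14 the adjusted p ran from 0.0020 to 0.189. Among the 6 that ended it were leaving out UCM replicate 2 (log2 FC = 1.06, adjusted p = 0.186), UCM replicate 3 (1.09, 0.189), UCM replicate 1 (1.34, 0.0584) or ACM replicate 3 (1.25, 0.0519), and the filter of at least 1 count in total (1.16, 0.154).

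The ligands of PD-1, CD274 and PDCD1LG2, lie near each other on the plus strand of chromosome 9 (GRCh38, chr9:5450503-5470566 and chr9:5510531-5571282). ACM replicates 1, 2 and 3 had 156, 128 and 136 counts of CD274, and those of UCM had 195, 76 and 89. As CPM it was at 7.41, 7.21 and 7.39 in ACM and at 9.24, 4.09 and 5.19 in UCM. The ACM values were close together and lay inside the range of UCM, which UCM replicate 1 widened. The log2 FC was 0.24 (SE 0.27, 95% interval -0.37 to 0.85, adjusted p = 0.651, edgeR), and without UCM replicate 1 it was 0.67 (adjusted p = 0.0515).

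CD274 also differed in the transcripts to which its reads were assigned. Its effective length, a mean over transcripts weighted by their abundance, was 1903, 1849 and 1879 bases in ACM and 1483, 892 and 1227 bases in UCM, longer in every ACM library. CD274 has 2 coding transcripts (3343 and 3634 bases) and 3 short ones without a coding sequence (442 to 704 bases). From the mean lengths the coding transcripts made up 50.5 to 60.0%, 48.6 to 58.2% and 49.5 to 59.1% of CD274 transcripts in ACM replicates 1, 2 and 3, and 36.2 to 45.6%, 16.0 to 25.2% and 27.2 to 36.5% in UCM. The share of coding transcripts was thus higher in each ACM library than in any UCM library. Because TPM divides by this length, the TPM of CD274 was 5.51, 5.40 and 5.68 with ACM but 9.04, 6.47 and 6.06 with UCM, lower in every ACM library. The log2 FC accordingly turned to -0.31 on log2(TPM + 1) (adjusted p = 0.340, limma) and to -0.37 with the effective length as an offset in edgeR (adjusted p = 0.367). The coding transcripts alone were at 2.63 to 3.36 TPM over the ACM libraries and at 3.27 to 4.12, 1.03 to 1.63 and 1.65 to 2.22 TPM in UCM replicates 1, 2 and 3, so the groups overlapped. Of the 8 tested members with more than 1 transcript, effective length was separated between the groups for CD274 and CD47 (longer in ACM) and for PVR (shorter in ACM), against 6.22% and 4.18% of such genes.

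The CD274 promoter is shown because, of the 9 members with a promoter window, only CD274 held a GAS match, the interferon gamma type of STAT site (TTCNNNGAA). It also held ISRE-like matches (GAAA, any 2 bases and GAAA, or TTTC, any 2 bases and TTTC on the other strand), the type bound by interferon regulatory factors. Its window is chr9:5450292-5450591 (RefSeq, GRCh38.p14, plus strand, 5′ to 3′), with every match in capitals.
CD274 promoter: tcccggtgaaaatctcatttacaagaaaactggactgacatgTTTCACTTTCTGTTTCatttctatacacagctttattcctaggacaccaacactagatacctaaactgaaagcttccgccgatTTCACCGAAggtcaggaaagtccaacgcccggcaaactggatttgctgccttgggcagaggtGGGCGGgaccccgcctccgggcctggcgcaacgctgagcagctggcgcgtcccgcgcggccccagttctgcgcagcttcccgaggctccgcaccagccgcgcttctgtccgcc
The first run of capitals holds 2 overlapping ISRE-like matches, the second is the GAS match and the third is a GC box. A GAS match occurs in 7.66% of all promoters and an ISRE-like match in 3.58%. LGALS9 held 1 ISRE-like match as well, GC boxes were found for VSIR, CD274, CD276, CD47, NT5E and NECTIN2, and no member held the E-box CACGTG (7.25% of all promoters) or the kB-like motif, GGG, any 2 bases and TTTCC (1.91%). The windows of PVR and VTCN1 held none of the 5 motifs.

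ACM replicates 1, 2 and 3 had 166, 217 and 193 counts of PDCD1LG2, and those of UCM had 178, 115 and 116. As CPM it was at 7.89, 12.2 and 10.5 in ACM and at 8.43, 6.18 and 6.76 in UCM, so that ACM replicate 1 lay below UCM replicate 1 while the other ACM libraries lay above all of UCM. The log2 FC was 0.51 (SE 0.19, 95% interval 0.08 to 0.94, adjusted p = 0.144, edgeR). It passed in 1 of 14 other settings, a filter of at least 1 count in total (adjusted p = 0.0499), and without replicate 1 of both groups, where it was 0.82 (adjusted p = 0.0120). With a single annotated transcript, its effective length stayed between 2149 and 2156 bases. The ratio of PDCD1LG2 to CD274 counts was 1.06, 1.70 and 1.42 in ACM and 0.913, 1.51 and 1.30 in UCM, overlapping between groups.

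The other B7 family members were CD276, which was abundant, and VTCN1, which was not detected. CD276 (chr15:73683966-73714514, plus strand) was at 115, 129.8 and 102 CPM in ACM and 98.7, 109 and 100.5 CPM in UCM. The ACM and UCM values overlapped, with a log2 FC of 0.17 (SE 0.09, adjusted p = 0.297, edgeR) and a 95% interval of 0.978-fold to 1.29-fold. VTCN1 (chr1:117143587-117210960, minus strand) had 0 counts in all 6 libraries, which allows up to 3 counts in a library, or 0.143 to 0.175 CPM, by counting error alone.

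CD47, the ligand of SIRPA, and the nectin family ligands were abundant and showed the smallest differences. CD47 (chr3:108043091-108091862, minus strand) was at 129, 149.6 and 128 CPM in ACM and 128, 135 and 138 CPM in UCM, and the 95% interval of its difference ran from 0.900-fold to 1.14-fold (log2 FC = 0.02, SE 0.08, adjusted p = 0.910, edgeR). PVR (chr19:44643798-44666162, plus strand) was at 228, 197 and 222 CPM in ACM and 215, 223 and 221 CPM in UCM, with an interval of 0.880-fold to 1.10-fold (log2 FC = -0.03, SE 0.07, adjusted p = 0.871). NECTIN2 (chr19:44846175-44889223, plus strand) was at 83.4, 85.0 and 87.0 CPM in ACM and 73.2, 81.9 and 91.4 CPM in UCM, with an interval of 0.909-fold to 1.18-fold (log2 FC = 0.05, SE 0.09, adjusted p = 0.770). For all 3 the groups overlapped. The signs of the CD47 and PVR differences flipped when values were scaled by effective length or given as TPM, and that of NECTIN2 flipped without UCM replicate 1. CEACAM19 shares exonic sequence with PVR on the same strand but had at most 4 counts in a library.

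LGALS9 (chr17:27629798-27649560, plus strand) was low and variable. ACM replicates 1, 2 and 3 had 74, 78 and 33 counts, and those of UCM had 74, 29 and 23, or 3.52, 4.39 and 1.79 CPM against 3.51, 1.56 and 1.34 CPM. ACM replicate 3 and UCM replicate 1 each departed from the other libraries of their group, and the groups overlapped. The log2 FC was 0.58 (SE 0.44, 95% interval -0.40 to 1.57, adjusted p = 0.472, edgeR), and without UCM replicate 1 it was 1.16 (adjusted p = 0.0888). The near-identical copies LGALS9B and LGALS9C were at 0 in all 6 libraries, although reads that fit several copies can be divided among them by the quantification.

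**Figure D2:**
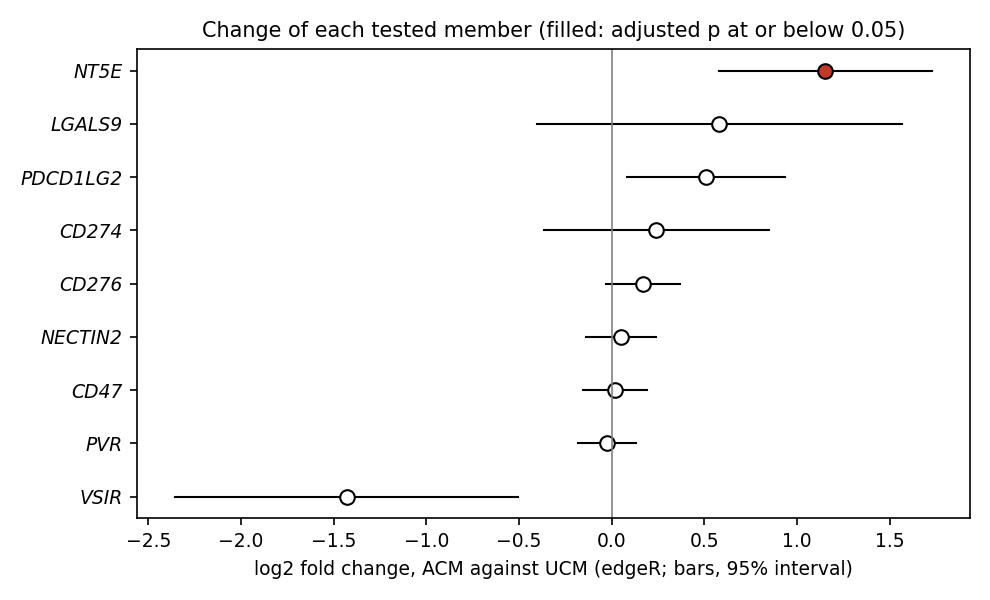
The log2 FC of ACM against UCM (horizontal axis) of the 9 tested members, with 95% intervals from edgeR; a filled point has an adjusted p-value at or below 0.05. NT5E (1.15) is the only filled point, VSIR (-1.43) lies farthest to the left with an interval from -2.36 to -0.50, and the intervals of NECTIN2, CD47 and PVR are narrow and cross 0.

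Levels of different genes were set side by side as TPM, which is scaled per length. In UCM the order of mean TPM was PVR (112 ± 0.788, SD over 3 libraries), CD47 (86.0 ± 3.00), NECTIN2 (62.0 ± 5.97), CD276 (55.6 ± 3.30), NT5E (54.5 ± 14.8), CD274 (7.19 ± 1.62), PDCD1LG2 (4.75 ± 0.843), LGALS9 (2.18 ± 1.08), VSIR (1.69 ± 1.10) and VTCN1 (0). The libraries overlapped between NECTIN2 and CD276, between CD276 and NT5E, and between LGALS9 and VSIR, and the other neighbours in this order were separate. The first 5 genes thus formed a high tier and the PD-1 ligands a lower one, and the means of PVR and NT5E stood above 92.4% and 84.5% of protein-coding genes in UCM while those of CD274 and PDCD1LG2 stood above 54.8% and 50.7%. In ACM, NT5E had the highest mean of the 10 genes, 117 ± 26.4 TPM, beside 113 ± 10.4 TPM for PVR, and their libraries overlapped. PDCD1LG2 (6.69 ± 1.37 TPM) had a higher mean than CD274 (5.53 ± 0.141 TPM) in ACM, the reverse of UCM, although their ACM libraries overlapped. Counting the coding transcripts of CD274 alone (at most 4.12 TPM in UCM replicate 1, 1.63 in replicate 2 and 2.22 in replicate 3), PDCD1LG2 was above CD274 in every UCM library as well, at 5.69, 4.06 and 4.50 TPM. VSIR was the lowest detected member in both media, at 0.373 ± 0.0971 TPM in ACM.

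**Figure D3:**
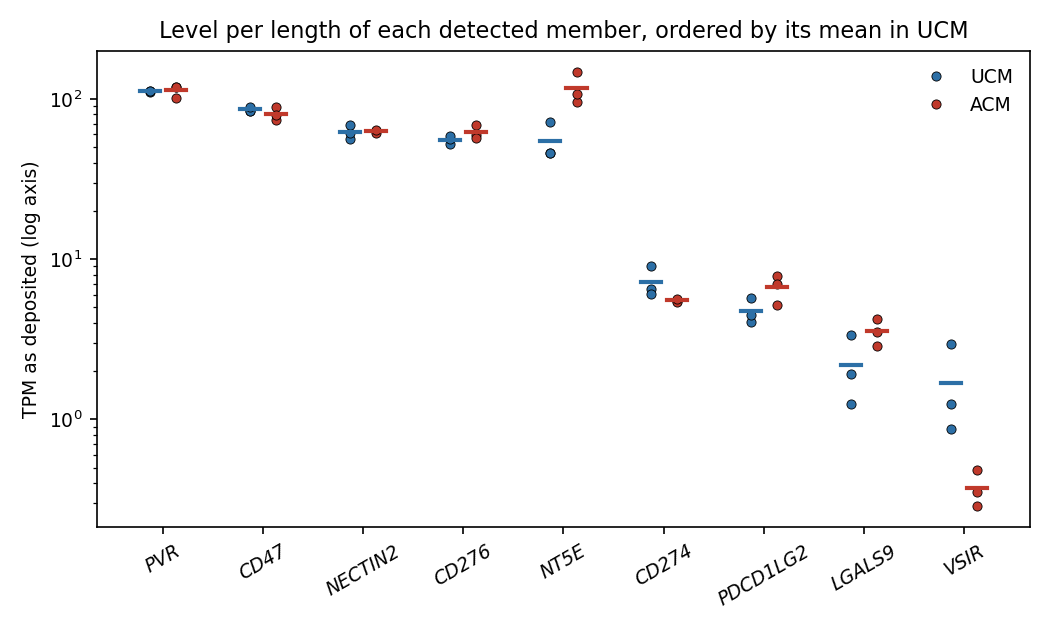
Deposited TPM (vertical log axis) of the 9 detected members in each UCM (blue) and ACM (red) library, with short lines at the group means, ordered from left to right by the mean in UCM. PVR, CD47, NECTIN2, CD276 and NT5E lie above 45 TPM in every library, the other genes lie below 10 TPM, and VSIR in ACM is lowest at 0.29 to 0.48 TPM.

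The genes whose log2 CPM followed VSIR most closely over the 6 libraries were UBN1 (Pearson r = 0.993), ENSG00000124593 (0.993), TOMM6 (0.992), NOP2 (0.990) and XXYLT1 (0.990), out of 11960 protein-coding genes at an average of at least 1 CPM. Each was lower in mean CPM in ACM, with log2 FCs between -0.43 and -0.18 that were small beside that of VSIR, and none passed the adjusted threshold. Those that followed CD274 were PIKFYVE (0.999), IGIP (0.990), HIPK2 (0.988), HHAT (0.987) and ABL2 (0.986), none of which passed the threshold either. With 6 libraries shared by all these genes and so many genes compared, values this close to 1 describe only the order within these libraries.

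Most receptors of such ligands had few or no reads in these cells. Of 32 genes of receptors and other binding partners, 14 had no count in any library, among them PDCD1 (PD-1) and TIGIT. Of the 32, 6 passed the filter and were tested. The tested genes included SIRPA, the receptor of CD47, at 127 to 141 CPM in ACM and 123 to 146 CPM in UCM, with a log2 FC of 0.01 (SE 0.08, adjusted p = 0.949, edgeR). None of the 6 passed the adjusted threshold in edgeR. By the unadjusted p-value 2 were higher (SIRPB1 and RGMB) and 1 was lower (LAG3), beside 11.9% and 11.5% of all genes tested, and the median log2 FC was -0.15. LAG3, an inhibitory receptor of T cells, had 10, 4 and 11 counts in the ACM libraries against 20, 18 and 25 in those of UCM (log2 FC = -1.35, SE 0.45, adjusted p = 0.110). SIRPB1, a close relative of the CD47 receptor SIRPA with which it could share reads, was at 9.51, 22.5 and 9.13 CPM in ACM and 8.91, 5.16 and 4.55 CPM in UCM (log2 FC = 1.13, SE 0.44, adjusted p = 0.195). RGMB, which binds PDCD1LG2, was at 206, 214 and 209 CPM in ACM and 203, 181 and 180.1 CPM in UCM (log2 FC = 0.16, SE 0.07, adjusted p = 0.203). All 3 had ACM values of CPM entirely on one side of UCM, LAG3 below and SIRPB1 and RGMB above. As TPM, LAG3 and RGMB stayed separate, but SIRPB1 overlapped (6.32 to 12.3 in ACM, 2.08 to 6.87 in UCM). Without ACM replicate 2 the log2 FC of SIRPB1 was 0.58. Among the 6 tested genes of this list 2 were separated upward and 2 downward, beside 13.9% and 15.1% of all genes tested. Besides LAG3, the gene separated downward was THBS1, a secreted protein that binds CD47 and not a receptor. THBS1 was at 3033, 1811 and 3042 CPM in ACM and 3334, 3168 and 3231 CPM in UCM. Its log2 FC was -0.30 (SE 0.19, adjusted p = 0.396, edgeR). Antisense genes share exonic sequence with RGMB, and whether counting used strand is not given in the sources used here.

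Of 41 further ligands and immune-evasion genes, 26 were tested, 1 was higher, 1 was lower, and the median log2 FC was -0.05. At the same adjusted threshold 3.35% of all genes tested were higher and 2.21% lower. By the unadjusted p-value 4 of the 26 were higher and 3 lower, beside 11.9% and 11.5% of all genes tested. In CPM 5 of the 26 had groups separated upward and 4 downward, beside 13.9% and 15.1% of all genes tested. TDO2, which degrades tryptophan, a step known to starve and inhibit T cells, was at 1.19, 2.93 and 2.72 CPM in ACM and 0.237, 0.484 and 0.350 CPM in UCM. It was therefore low in both media and higher in every ACM library (log2 FC = 2.66, SE 0.48, adjusted p = 0.0132, edgeR), on 127 counts in ACM and 20 in UCM. CD46, a surface regulator that protects cells from complement, was at 94.0, 91.6 and 83.7 CPM in ACM and 121, 113 and 117 CPM in UCM. It fell by 0.38 on the log2 scale (SE 0.07, adjusted p = 0.0146).

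Of 33 genes of adenosine formation, uptake and sensing other than NT5E, 21 were tested, 1 was higher, none was lower and the median log2 FC was 0.08. The shares of all genes tested were 3.35% higher and 2.21% lower. By the unadjusted p-value 5 of the 21 were higher and 0 lower, beside 11.9% and 11.5% of all genes tested. In CPM 8 of the 21 had groups separated upward and 1 downward, beside 13.9% and 15.1% of all genes tested. The gene higher at the adjusted threshold was ADORA2A, the adenosine receptor through which adenosine lowers T cell activity, here measured in the tumor cells. It was at 76.8, 75.6 and 77.8 CPM in ACM and 64.2, 60.1 and 62.8 CPM in UCM, tightly grouped in both media and separate between them. The log2 FC was 0.30 (SE 0.07, adjusted p = 0.0321, edgeR), a smaller change than that of NT5E, and the call was kept in 6 of 14 other settings. ADORA2A shares exonic sequence with SPECC1L-ADORA2A on the same strand, which had 10 counts in ACM replicate 1 and 0 in every other library. It also shares exonic sequence with ADORA2A-AS1 on the opposite strand, at 7 to 32 counts in ACM and 17 to 21 in UCM.

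Of 53 genes known to regulate the expression or turnover of such ligands, 52 were tested, 4 were higher, 1 was lower and the median log2 FC was 0.07. The shares of all genes tested were 3.35% higher and 2.21% lower. By the unadjusted p-value 13 of the 52 were higher and 5 lower, beside 11.9% and 11.5% of all genes tested. The transcription factor JUN rose from 252 to 270.3 CPM in UCM to 328 to 379 CPM in ACM (log2 FC = 0.39, SE 0.07, adjusted p = 0.0155, edgeR). MYC rose from 141 to 160.4 CPM to 179 to 196 CPM (0.30, SE 0.07, adjusted p = 0.0371), and the TNF receptor TNFRSF1A from 124 to 157 CPM to 179.8 to 203 CPM (0.43, SE 0.09, adjusted p = 0.0304). IFNGR2, a subunit of the interferon gamma receptor, was at 56.8 to 68.5 CPM in ACM and 45.3 to 47.8 CPM in UCM (0.40, SE 0.09, adjusted p = 0.0301). It shares exonic sequence with TMEM50B on the opposite strand, which had 790 to 880 counts in ACM and 586 to 663 in UCM, so without knowledge of strand these reads cannot be told apart. EZH2, the methyltransferase of histone H3 lysine 27, fell by 0.31 on the log2 scale, from 80.2 to 87.0 CPM in UCM to 64.9 to 69.6 CPM in ACM (SE 0.07, adjusted p = 0.0335). For each of these 5 genes the groups were separate, and the calls were kept in 6 (EZH2) to 11 (JUN) of 14 other settings. Of the 52 tested regulators 9 were separated upward and 4 downward, beside 13.9% and 15.1% of all genes tested.

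Among 29 ligands that stimulate rather than restrain immune cells, 15 were tested, 2 were higher, 2 were lower and the median log2 FC was 0.20. The shares of all genes tested were 3.35% higher and 2.21% lower. By the unadjusted p-value 6 of the 15 were higher and 3 lower, beside 11.9% and 11.5% of all genes tested. In CPM 7 of the 15 had groups separated upward and 3 downward, beside 13.9% and 15.1% of all genes tested. MICA, a stress-induced ligand of the NKG2D receptor of natural killer cells, was at 30.0, 31.4 and 26.5 CPM in ACM and 43.7, 56.8 and 55.7 CPM in UCM. It fell by 0.83 on the log2 scale (SE 0.12, adjusted p = 0.0047, edgeR). MICB, a near relative with which it could share reads, was at 21.2, 24.2 and 25.8 CPM in ACM and 33.6, 36.5 and 35.7 CPM in UCM, and fell by 0.57 on the log2 scale (SE 0.10, adjusted p = 0.0106). ICAM1, an adhesion molecule that T cells bind through LFA-1, was at 188.5, 269 and 193 CPM in ACM and 115, 118 and 105 CPM in UCM. It rose 1.93-fold (log2 FC = 0.94, SE 0.14, adjusted p = 0.0097), and it and MICA were called in all 14 other settings. TNFSF15, a TNF family cytokine that costimulates T cells, had 52, 71 and 38 counts in the ACM libraries against 25, 10 and 11 in those of UCM (log2 FC = 1.82, SE 0.40, adjusted p = 0.0290). The call of TNFSF15 was kept in 7 of the 14 settings, and on log2(TPM + 1) the log2 FC of TNFSF15 was 0.46 (adjusted p = 0.148, limma). The call of MICB was kept in 12 of the 14. Over the 5 lists together, 8 of 120 tested genes were higher and 4 were lower, with a median log2 FC of 0.05, beside the 3.35% and 2.21% of all genes tested.

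**Figure D4:**
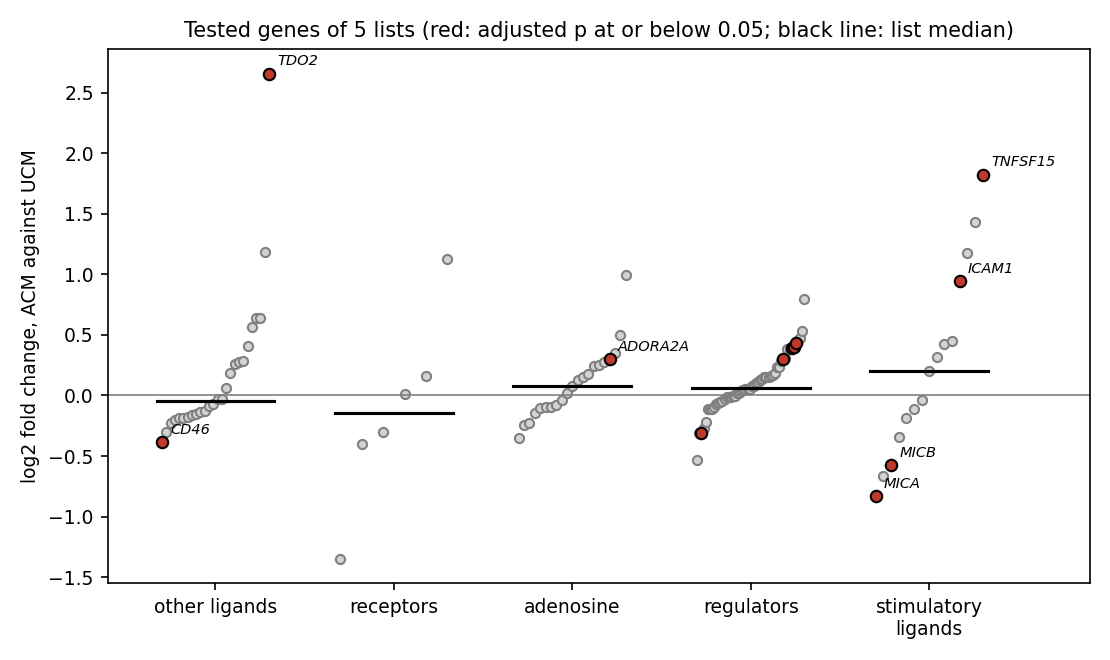
The log2 FC of ACM against UCM (vertical axis) of every tested gene in the 5 lists, each sorted from low to high; red points have an adjusted p-value at or below 0.05 and black lines are list medians. Red points lie on both sides of 0 and the medians lie between -0.15 and 0.20.

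The calls on VSIR and NT5E, which lie on either side of the adjusted threshold, were followed across those settings and the one added later. VSIR stayed below 0 in each of the settings in which it could be fitted and NT5E stayed above 0 in all of them, while their calls changed in several. CD274 changed sign with settings that use transcript length.

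**Figure D5:**
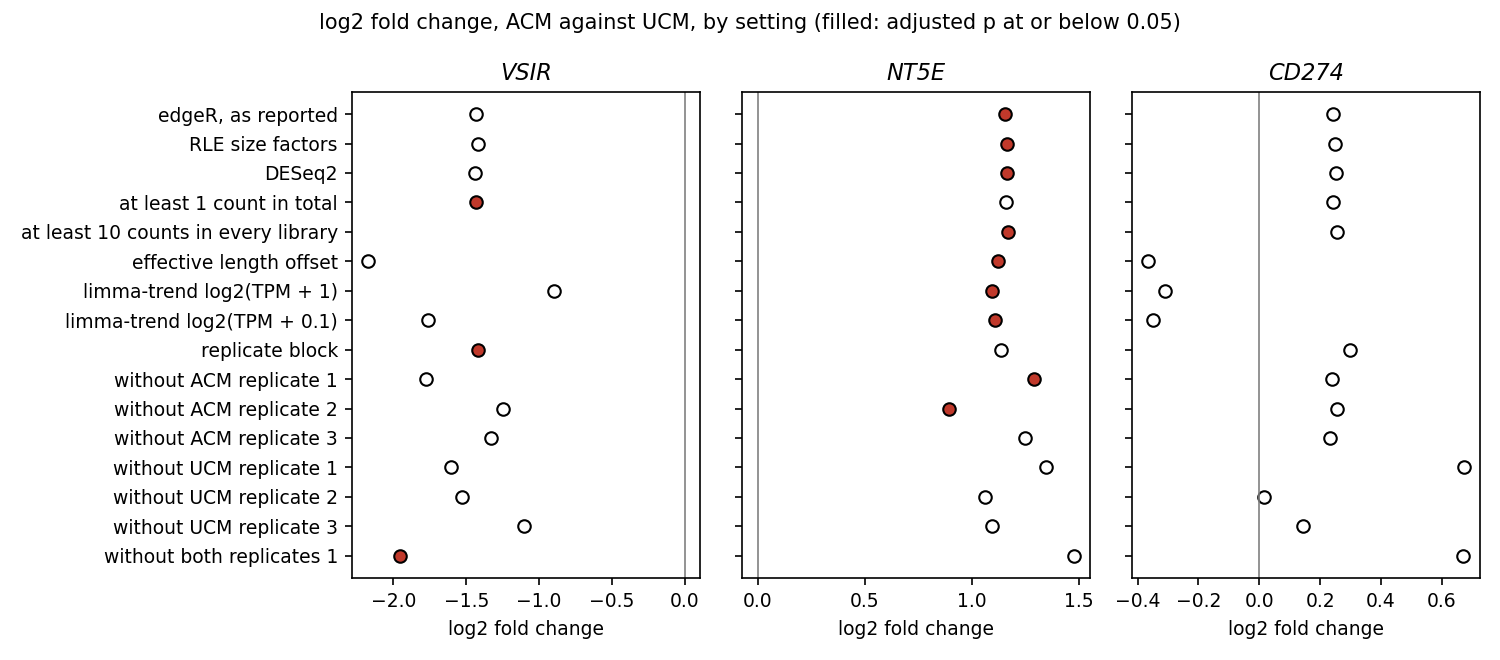
The log2 FC of ACM against UCM (horizontal axes, each panel on its own scale) of VSIR, NT5E and CD274 under each setting (rows); filled points have an adjusted p-value at or below 0.05. VSIR ranges from -2.17 to -0.90 with no point for the filter of at least 10 counts in every library, NT5E from 0.89 to 1.48, and CD274 from -0.37 to 0.67, below 0 in the 3 settings that use effective length or TPM.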

How the data were processed

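RNA was sequenced from 3 ACM and 3 UCM cultures of BT-549 cells as polyA-enriched, paired-end libraries. The authors used Trim Galore for trimming, STAR for alignment to GRCh38, RSEM for quantification and DESeq2 for differential expression. Versions and the gene annotation are not given in the sources used here. The deposited expected counts divide ambiguous reads between transcripts and genes and are not scaled for library size. The TPM deposited by the authors is scaled by the effective length of each gene in each library and to the library's sum. The deposited length and effective length are other values, in bases. A deposited table with the authors' own fold changes and p-values was not used.

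Identifiers were matched, ignoring version, to GENCODE 44 (62541 of 63140; 61547 with version). Rounded expected counts were tested with edgeR 4.0.16 in R 4.3.3 (filterByExpr, TMM, robust quasi-likelihood test, Benjamini-Hochberg adjustment over 14451 genes), and CPM used the TMM factors. Common biological variation was 0.115. With 3 libraries per group and totals of 17135288 to 21053257, precision is lowest for genes with few counts. Alternatives used DESeq2 1.42.0, RLE factors, a low-count filter requiring 1 count in total or 10 in every library, effective length offsets, limma-trend 3.58.1 on log2(TPM + 1) or log2(TPM + 0.1), a replicate block, and each library left out. TPM rescaled by TMM was an alternative for levels. Leaving out replicate 1 of both groups was added after the data were seen.

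Promoters are RefSeq windows on GRCh38.p14, found for 9 of the 10 members. The members, the 5 gene lists and the markers were chosen with earlier results of these data known. Named list genes are those at the adjusted threshold (up to 6 per list), or up to 3 with the smallest unadjusted p-value at or below 0.05 where none passed. PDCD1, TIGIT and SIRPA were named as receptors of members after their values were seen, as were THBS1 for its separation and CD68 for its level. Also named are near-identical genes, some but not all of the overlapping genes, and the 5 protein-coding genes most correlated with VSIR and with CD274.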

Additional observations from a re-analysis of the deposited data

How the results depend on the processing

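The directions of VSIR, NT5E, PDCD1LG2, CD276 and LGALS9 were kept in every alternative in which they could be fitted, and VSIR could not be fitted with at least 10 counts in every library. VSIR passed the adjusted threshold with at least 1 count in total (log2 FC -1.43, adjusted p = 0.0271), with the replicate block (-1.42) and without replicate 1 of both groups (-1.96), and leaving out libraries gave -1.96 to -1.10. NT5E did not pass with at least 1 count in total (1.16), with the replicate block (1.13, adjusted p = 0.183) or without replicate 1 of both groups (1.48), and leaving out libraries gave 0.89 to 1.48. Members higher at the adjusted p were 0 with the block and 0 to 1 with libraries left out. Members lower were 1 with at least 1 count in total and with the block, and 0 to 1 with libraries left out. UpDEGs among the members were 0 with the block and 1 to 4 with libraries left out, 4 of them without UCM replicate 1, and DownDEGs were 0 with at least 10 counts in every library. Over the 5 lists, higher genes were 17 with at least 1 count in total, 4 with effective length offsets, 4 with log2(TPM + 1), 4 with log2(TPM + 0.1), 13 with the block and 1 to 19 with libraries left out. Lower genes were 7 with the block and 1 to 5 with libraries left out. The causes were not tested.

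Signs reversed for CD274 with effective length offsets (-0.37), log2(TPM + 1) (-0.31) and log2(TPM + 0.1) (-0.35). In the same settings CD47 was at -0.081, -0.10 and -0.10 and PVR at 0.029, 0.0087 and 0.0087. With libraries left out, CD47 ranged from -0.057 to 0.062 (-0.0027 without UCM replicate 1), PVR from -0.070 to 0.035 and NECTIN2 from -0.016 to 0.15, reversing without ACM replicate 2 (CD47, PVR) and without UCM replicate 1 (CD47, NECTIN2).

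Correlations between libraries did not settle whether the replicate numbers pair the samples. Deviations from the group means correlated at 0.318, 0.0347 and 0.177 between libraries of number 1, 2 and 3. ACM replicates 1 and 2 correlated best with their own number. ACM replicate 3 correlated best with UCM replicate 2 (0.196), so not every library correlated best with its own number. With the block, 1612 genes were called against 804 without it. Other fits called 1211 (DESeq2), 1724 (at least 1 count in total), 394 (effective length offsets), 362 (log2(TPM + 1)) and 372 (log2(TPM + 0.1)), and leaving out libraries gave between 195 and 1743. Depth limits VSIR most, at 8 to 42 counts per library, followed by LGALS9 at 23 to 78.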
